A study of Mus musculus with 6 samples.

Results

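The mitotic kinases, kinetochore and spindle genes are 36 genes of the mouse gene table, taken by symbol from the 55487 genes it lists, and all 36 were found and had enough counts to be tested. They were measured by polyA RNA sequencing in B16F10, a mouse melanoma cell line, transduced with a lentiviral scramble shRNA (shCtr, labelled WT, 3 libraries) or with the hairpin OSGEP#2 (shOSGEP, labelled KD OSGEP, 3 libraries). OSGEP carries the catalytic activity of KEOPS, the complex that puts the t6A modification on tRNAs reading codons that start with A, and both groups grew in the same medium. The 3 libraries of a group came from 3 independent infections, and since 1 hairpin and 1 cell line were used, an effect of that hairpin other than the knockdown cannot be told apart from it.

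Cells enter mitosis when cyclin B binds CDK1, and Polo-like and Aurora kinases then drive centrosome maturation, spindle assembly and the attachment of chromosomes. Kinetochores built on CENP-A chromatin hold the microtubules through the NDC80 complex, the spindle assembly checkpoint delays the anaphase-promoting complex (APC/C) until every chromosome is attached, and CDC20-APC/C then destroys securin and cyclin B so that separase can cut cohesin. The messenger RNAs of these proteins peak in G2 and mitosis, and their promoters are known for 2 short elements, the CHR bound by the MuvB complex and CCAAT boxes bound by NF-Y. In bulk RNA a lower level of these genes can mean fewer cells in G2 and mitosis or less RNA per cell, and the 2 cannot be told apart here.

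The sequences shared by the members are shown first. The CHR and CCAAT words were not read from the counts, but mitotic genes are known for them. A high share of these words therefore goes with the kind of genes chosen and describes the members only. RefSeq promoter windows (GRCm38.p6, from 250 bases before to 50 after a start site) were found for 29 of the 36 genes, 31 windows in all. The CHR core was searched as TTTGAA or TTCGAA and the NF-Y box as CCAAT, each on both strands, so that a word on the other strand reads TTCAAA or ATTGG. A CHR word was present in 25 of the 31 member windows (80.6%) and in 6316 of 32851 windows of all genes (19.2%). A CCAAT word was present in 24 member windows (77.4%) against 37.4% of all windows, and both words occurred together in 22 member windows (71.0%) against 7.53%. Of the 33 CHR words in the member windows 23 lay within 50 bases of the start site, and 52 of the 53 CCAAT words lay before it. Bub3 and Prc1 each have 2 overlapping windows, so 2 CHR and 3 CCAAT words are counted in both, and 31 and 50 words are distinct. The median distance from a CHR word back to the nearest upstream CCAAT word was 32 bases, over the 27 CHR words that had one, and 1 CHR word overlapped a CCAAT word. A match of letters is a description and does not show a bound site.

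The 150 bases before the start site are given 5′ to 3′ on the gene's strand for 6 members, with CHR and CCAAT words in capitals. These members come from mitotic entry, the anaphase switch, the spindle motors and chromosome structure, and not from the other roles. They are Cdk1 at chr10:69352913-69353062 (minus strand), Cdc20 at chr4:118437344-118437493 (minus), Espl1 at chr15:102296143-102296292 (plus), Kif11 at chr19:37376232-37376381 (plus), Top2a at chr11:99024190-99024339 (minus) and Mki67 at chr7:135716380-135716529 (minus).
Cdk1: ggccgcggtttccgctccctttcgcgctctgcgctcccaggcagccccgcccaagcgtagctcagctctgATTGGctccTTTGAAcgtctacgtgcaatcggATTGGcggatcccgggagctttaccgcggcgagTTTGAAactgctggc
Cdc20: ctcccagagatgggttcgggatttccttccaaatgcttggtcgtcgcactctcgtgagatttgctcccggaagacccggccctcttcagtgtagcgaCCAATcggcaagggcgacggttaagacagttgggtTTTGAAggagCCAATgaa
Espl1: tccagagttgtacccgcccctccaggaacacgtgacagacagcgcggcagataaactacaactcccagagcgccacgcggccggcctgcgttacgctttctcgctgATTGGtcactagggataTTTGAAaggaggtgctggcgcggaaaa
Kif11: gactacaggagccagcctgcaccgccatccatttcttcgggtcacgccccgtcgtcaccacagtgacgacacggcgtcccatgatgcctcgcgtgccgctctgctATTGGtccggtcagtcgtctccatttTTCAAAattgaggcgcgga
Top2a: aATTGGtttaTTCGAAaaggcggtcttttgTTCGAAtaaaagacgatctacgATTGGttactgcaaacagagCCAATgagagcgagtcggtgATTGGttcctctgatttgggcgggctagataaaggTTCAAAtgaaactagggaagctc
Mki67: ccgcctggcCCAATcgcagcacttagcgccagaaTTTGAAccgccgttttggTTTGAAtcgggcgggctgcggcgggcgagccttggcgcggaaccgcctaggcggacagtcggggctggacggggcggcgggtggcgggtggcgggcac
In Cdk1 a CCAAT word stood before each of the 2 CHR words, which lay 71 and 15 bases upstream of the start. In Cdc20, Espl1 and Kif11 a single CHR word lay 18, 27 and 19 bases upstream, behind a CCAAT word at 53, 44 and 45 bases. Top2a carried the most words, with 4 CHR and 6 CCAAT words in its window, and Mki67 carried its 2 CHR words farther out, at 116 and 98 bases. Birc5, Mad2l1, Pttg1 and Nuf2 held neither word in the window.

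**Figure D1:**
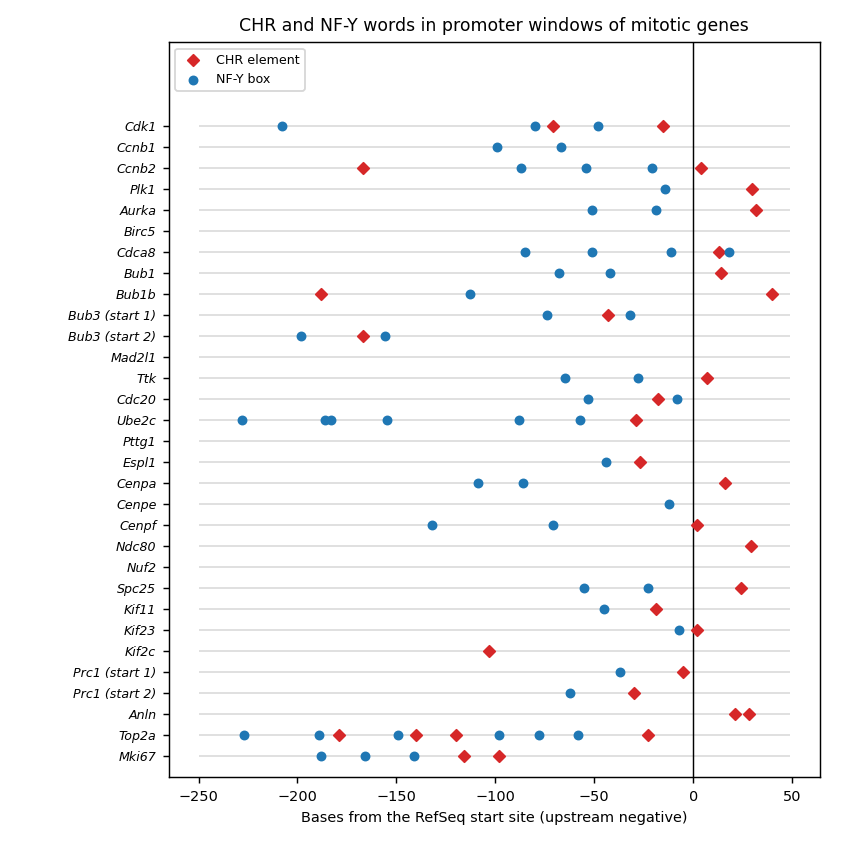
Position of CHR words (diamonds) and CCAAT words (circles) in the 31 RefSeq promoter windows of 29 mitotic genes, in bases from the start site (x axis, upstream negative), 1 line per window. Most windows hold CCAAT words upstream of a CHR word near the start, and 4 windows hold neither.

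The targeted gene and the state of the libraries were examined before the members. Osgep, in TMM-scaled CPM (a gene's counts as a share of its library, divided by the library's TMM factor, used for every level below), stood at 20.6, 58.6 and 21.8 in shCtr and at 4.28, 0.542 and 5.52 in shOSGEP, with no overlap between groups. Its log2FC (log2 of shOSGEP over shCtr, also used throughout) was -3.29 (SE 0.876, edgeR adjusted p = 1.00), and a two-sided exact permutation test of 3 against 3 gave p = 0.1, the smallest it can give. Libraries held 18915587 to 29487384 counts. The library shCtr 2 stood apart: it had a TMM factor of 0.690 against 1.04 to 1.14 in the other 5, and relative to the other shCtr libraries its genes under 44% transcript GC lay at -2.49 (median, log2) and those of 50% GC or more at 0.91. By the same measures shOSGEP 2 (-0.69 and 0.21) was no farther from its group than shOSGEP 1 (0.94 and -0.38). Same-numbered libraries of the 2 groups deviated together from their group means (r over genes of 0.811, 0.557 and 0.196 for replicates 1, 2 and 3), though shCtr 3 with shOSGEP 1 reached 0.491. Melanocyte lineage genes (Mlana, Pmel, Tyr, Tyrp1, Dct, Mitf and Sox10) summed to 17040 to 29600 CPM in shCtr and to 18080, 3551 and 15390 CPM in shOSGEP. Markers of T cells, other leukocytes, endothelium and epithelium summed to at most 0.969 CPM in any library, and 5 fibroblast markers summed to 5.06 to 11.2 CPM in shCtr and 13.0 to 19.5 CPM in shOSGEP, with Dcn and Thy1 at 0 throughout. The part of these differences in the member values was not tested.

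The mitotic genes were lower in shOSGEP as a group, by an amount that depended on the replicate. All 36 had a negative log2FC, where 52.7% of the 12669 genes tested did, and the members' median was -0.70 (range -1.47 to -0.06) beside -0.03 over all genes. By the quasi-likelihood test of edgeR the adjusted p of no member was under 0.05, as that of no gene in the table was (0%, with 256 genes at an unadjusted p under 0.05), and the smallest unadjusted p among members was 0.0395 for Birc5. Birc5 was also the only member past the study's threshold of a log2FC beyond 0.5 with an unadjusted p under 0.05, which 0.426% of all genes passed on the lower side and 1.59% on the higher side. With the replicate number as a block Birc5 had an unadjusted p of 0.0510 and Cdk1 of 0.0467, so that the count was again 1 with another gene. In that fit 79 genes of the table passed the threshold lower and 294 higher. DESeq2 also called 0 members at an adjusted p under 0.05, where it called 14 genes of the table. Plk1, Birc5, Cdc20 and Spc24 had an unadjusted p under 0.05 in it, as did 370 of the 12669 genes tested.

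The size of the difference varied between replicates. The 3 shOSGEP values lay below the 3 shCtr values in 9 members (Cdk1, Ccnb1, Ccnb2, Aurkb, Birc5, Bub1b, Spc24, Kif2c and Tpx2) and above them in 0, where 2.87% of all genes were lower and 3.49% higher without overlap. Between libraries of the same replicate number, 32 of 36 members were lower in shOSGEP in 3 of 3 comparisons, against 17.2% of all genes. The 4 others were Pttg1, Nuf2, Spc25 and Kif11. The median log2 ratio of the members was -0.33 in replicate 1 (range -0.75 to -0.02, 36 lower), -1.86 in replicate 2 (range -3.85 to 0.63, 33 lower) and -0.28 in replicate 3 (range -0.45 to 0.46, 34 lower). The members together made up 4810.5, 4847 and 4865 CPM in the shCtr libraries and 3862, 1361 and 4014 CPM in the shOSGEP libraries, lowest in shOSGEP 2. As percentages of all counts, before TMM scaling, they were 0.527, 0.334 and 0.507 in shCtr and 0.439, 0.145 and 0.418 in shOSGEP. On that scale shCtr 2 lay below shOSGEP 1 and shOSGEP 3, so the like sums of the controls rest on the TMM factor of shCtr 2, while each shOSGEP library was below the shCtr library of its number on both scales. Without both libraries of replicate 2 the median log2FC was -0.31 and 35 of 36 members were still negative, Pttg1 being at 0.26. With a single library left out, 24 members were lower without shCtr 1 or without shOSGEP 2, and 35 without any other library.

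**Figure D2:**
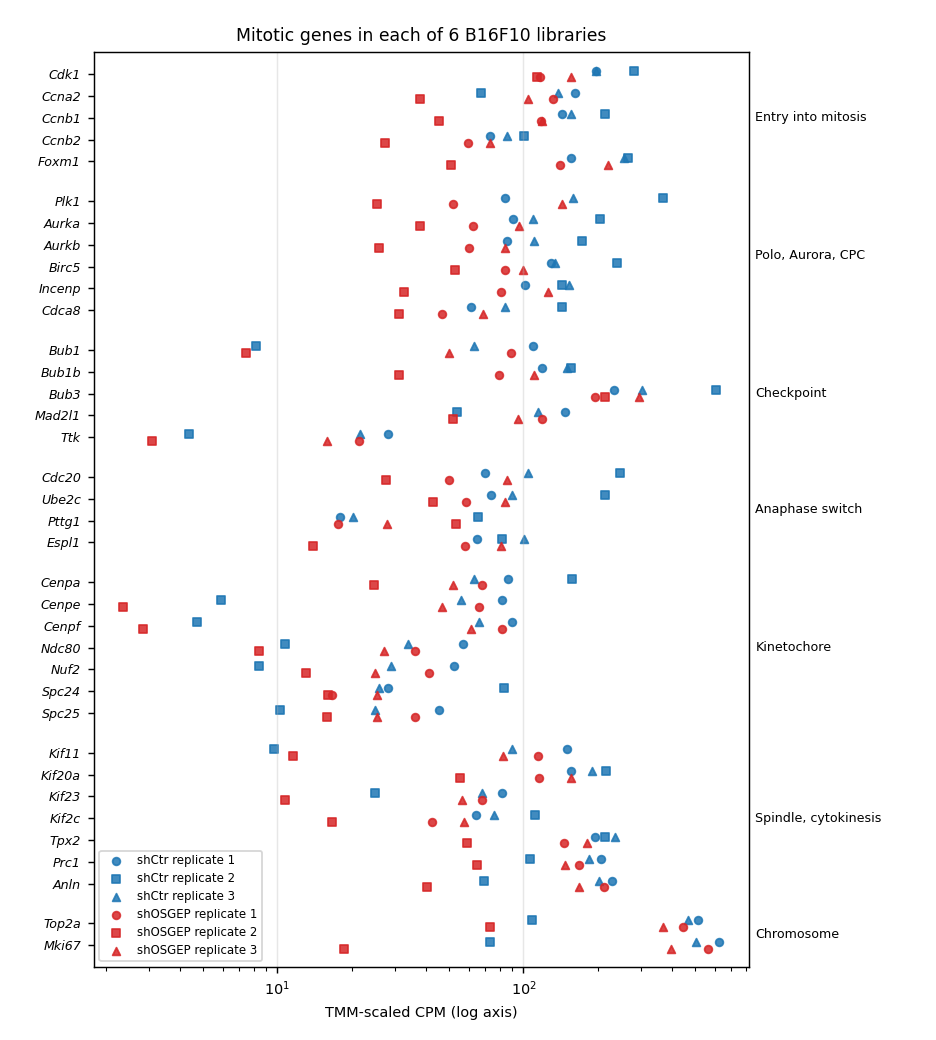
TMM-scaled CPM (x axis, log scale) of the 36 mitotic genes in each of the 3 shCtr and 3 shOSGEP libraries, 1 point per library, grouped by role. In 9 genes, among them Cdk1, Birc5 and Kif2c, the 3 shOSGEP points lie below all 3 shCtr points, and in Bub1, Cenpe, Cenpf and Kif11 both replicate 2 libraries lie far below the other 4.

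Of the genes for entry into mitosis, Cdk1 (chr10:69335146-69352938), the kinase itself, was lower in each shOSGEP library than in every shCtr library. Its level was 197, 280.5 and 196 CPM in shCtr and 117, 113 and 156 CPM in shOSGEP (224 ± 48.5 against 129 ± 23.7, SD, n = 3), and the groups did not overlap. The log2FC was -0.80 (SE 0.387, unadjusted p = 0.0714), and -0.52 without replicate 2. Ccnb1, the main cyclin B, stood at 144, 214 and 156 CPM in shCtr against 118, 45.5 and 119 CPM in shOSGEP (log2FC -0.86, SE 0.479). Its groups were also separate, with the lowest value in shOSGEP 2, although 46.9% of the 31-base words of its transcript occur in other annotated genes, Ccnb1-ps among them, so its counts could be shared. Ccnb2, the second cyclin B, had 73.1, 101 and 85.9 CPM against 59.5, 27.5 and 72.9 CPM, again without overlap, by less than 1 CPM between shCtr 1 and shOSGEP 3. Ccna2, the cyclin that serves both S phase and mitotic entry, was at 162, 67.5 and 139 CPM in the controls against 132, 38.0 and 104 CPM with shOSGEP. Of its 31-base words 16.5% occur in Exosc9 on the opposite strand. The groups of Ccna2 overlapped, with both replicate 2 libraries low. Foxm1, a transcription factor of G2 and M phase genes, was at 157, 265 and 256 CPM against 141, 50.7 and 220 CPM, which overlap too, and part of its transcript overlaps Tex52 on the same strand. In the same-numbered comparisons all 5 were lower in 3 of 3, with medians of -0.29, -1.87 and -0.33.

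The Polo and Aurora kinases with the chromosomal passenger complex, which corrects faulty attachments, had a median log2FC of -1.07 over 6 genes. This was the lowest of the roles in the main comparison, while with GC and length offsets the checkpoint genes were lower (-0.95 against -0.87), and without replicate 2 the median here was -0.33, as for the genes of mitotic entry. Plk1, the Polo-like kinase (chr7:122159439-122169873), was at 84.3, 368 and 159 CPM in the controls against 51.7, 25.5 and 144 CPM with shOSGEP. It had the lowest log2FC of all members, -1.47, with the widest error in its role (SE 0.758, unadjusted p = 0.0872), and the groups overlapped, since shCtr 1 lay below shOSGEP 3. Without replicate 2 its log2FC was -0.31, and the same-numbered ratios were -0.70, -3.85 and -0.15. Of the 31-base words of its transcript 19.2% occur in other annotated genes, Plk-ps1 among them, so its counts could be shared. Aurkb, the kinase of the passenger complex, was at 85.3, 172 and 111 CPM against 60.0, 25.8 and 84.3 CPM (log2FC -1.11, SE 0.533, unadjusted p = 0.0688). Its groups were separate by less than 1 CPM, between shCtr 1 and shOSGEP 3. Birc5, which encodes survivin and brings the complex to centromeres (chr11:117849251-117855743), was at 129.9, 240.1 and 135 CPM in the controls against 83.9, 52.7 and 99.5 CPM with shOSGEP. The means were 168 ± 62.3 and 78.7 ± 23.8 CPM (SD, n = 3) without overlap, and the log2FC was -1.10 (SE 0.449, unadjusted p = 0.0395, edgeR adjusted p = 1.00), or -0.53 without replicate 2. Aurka, the centrosomal Aurora kinase, had 90.4, 204 and 109 CPM against 62.2, 38.1 and 96.1 CPM, overlapping only between shCtr 1 and shOSGEP 3. Incenp and Cdca8, the scaffold and borealin subunits, had log2FCs of -0.73 and -0.98 and overlapped in the same way. All 6 genes were lower in each of the 3 same-numbered comparisons, with medians of -0.52, -2.31 and -0.29.

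Among the spindle assembly checkpoint genes Bub1b, which encodes the checkpoint protein BUBR1, was the only one without overlap. It stood at 118, 157 and 151 CPM in the controls against 79.6, 31.2 and 110.3 CPM with shOSGEP (142 ± 20.6 against 73.7 ± 39.9, SD, n = 3), a log2FC of -0.94 (SE 0.510, unadjusted p = 0.0996), and -0.50 without replicate 2. Bub1, the checkpoint kinase at kinetochores, showed how the replicates differed, with 109.8, 8.21 and 62.9 CPM in shCtr and 89.0, 7.48 and 49.9 CPM in shOSGEP. Both replicate 2 libraries lay far below the other 4, and the log2FC of -0.31 had an SE of 1.00, while its same-numbered ratios were -0.30, -0.13 and -0.33. Ttk, the MPS1 kinase that starts the checkpoint signal, had 28.3, 4.38 and 21.6 CPM against 21.4, 3.10 and 15.9 CPM and ratios of -0.40, -0.49 and -0.44. Mad2l1, which encodes the CDC20 inhibitor MAD2, was at 147, 53.6 and 114 CPM against 119, 51.8 and 94.6 CPM, and its ratios were -0.31, -0.05 and -0.27. Bub3, which carries BUB1 and BUBR1 to kinetochores, was at 233, 604 and 303 CPM against 195, 215 and 296 CPM, with shCtr 2 far above the rest. All 5 ran lower in each same-numbered comparison, with medians of -0.31, -0.49 and -0.33.

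The anaphase genes were divided. Cdc20, the activator of the APC/C that the checkpoint holds back, was at 69.8, 246 and 104 CPM in the controls against 49.8, 27.6 and 85.9 CPM with shOSGEP. Its log2FC of -1.36 (SE 0.619, unadjusted p = 0.0577) was the second lowest of all members, and the groups overlapped between shCtr 1 and shOSGEP 3. Ube2c, the ubiquitin-conjugating enzyme of the APC/C, was at 73.9, 215 and 89.6 CPM against 58.3, 42.7 and 83.9 CPM, and Espl1, which encodes separase, at 65.0, 81.8 and 100.5 CPM against 57.8, 14.0 and 81.2 CPM. Both overlapped, by shOSGEP 3 lying above shCtr 1. Pttg1, which encodes the separase inhibitor securin, had the log2FC nearest 0 of the 4: it was at 17.9, 65.5 and 20.3 CPM in the controls against 17.7, 53.3 and 28.0 CPM with shOSGEP. Its ratios were -0.02, -0.30 and 0.46, and its log2FC of -0.07 (SE 0.649) was positive in the fits with upper-quartile scaling (0.10) and with the replicate block (0.05). Of the transcripts of Cdc20 and Ube2c 28.7% and 25.1% is shared with other genes, partly with Elovl1 and Tnnc2 on the opposite strand, and the counting is not stated to use strand.

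The centromere and kinetochore genes were the most mixed role, with 2 of 7 higher in shOSGEP in replicate 2. Spc24, a subunit of the NDC80 complex, was at 28.0, 83.3 and 25.8 CPM in the controls against 16.7, 16.04 and 25.5 CPM with shOSGEP, a log2FC of -1.24 (SE 0.566, unadjusted p = 0.0591). The groups did not overlap, but shOSGEP 3 and shCtr 3 differed by less than 1 CPM, the ratios were -0.75, -2.37 and -0.02, and the log2FC was -0.35 without replicate 2. Its partner Spc25 was at 45.5, 10.3 and 24.9 CPM against 36.2, 15.8 and 25.5 CPM, with ratios of -0.33, 0.62 and 0.04, the log2FC nearest 0 of all members (-0.06). Nuf2 was likewise higher in shOSGEP 2 than in shCtr 2 (52.0, 8.41 and 28.9 CPM against 41.5, 13.1 and 24.8 CPM). Ndc80, the fourth subunit, was at 56.9, 10.8 and 33.8 CPM against 36.1, 8.41 and 27.0 CPM and lower in 3 of 3 comparisons (-0.66, -0.35 and -0.32). The 4 subunits of the complex thus covered log2FCs from -1.24 to -0.06. Cenpa, the histone variant of centromeres, was at 86.8, 158 and 63.1 CPM against 68.1, 24.6 and 51.5 CPM, with an overlap of shOSGEP 1 above shCtr 3 and a log2FC of -1.09 (SE 0.539). Cenpe and Cenpf, a kinetochore motor and a large fibrous kinetochore protein, had 5.90 and 4.72 CPM in shCtr 2, and 2.36 and 2.83 CPM in shOSGEP 2, against 46.7 to 89.6 CPM in the other libraries. The 61 counts of Cenpe in shOSGEP 2 were the lowest of any member in a library, and their log2FCs of -0.31 and -0.14 had SEs of 1.13 and 1.18.

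Of the spindle motors, midzone and cytokinesis genes, Kif2c and Tpx2 were without overlap. Kif2c, which encodes the microtubule depolymerase MCAK (chr4:117159639-117182639), was at 64.1, 111 and 76.2 CPM in the controls against 42.5, 16.7 and 57.1 CPM with shOSGEP (log2FC -1.11, SE 0.532, unadjusted p = 0.0690, and -0.49 without replicate 2). Tpx2, the spindle activator of Aurora A, was at 196, 214 and 236 CPM against 146, 58.9 and 181 CPM (215 ± 20.2 against 129 ± 62.9, SD, n = 3), a log2FC of -0.74. Kif11, the plus-end motor that separates spindle poles, ran from 9.68 CPM in shCtr 2 to 150.5 CPM in shCtr 1, with 89.9 CPM in shCtr 3 and 115, 11.5 and 82.7 CPM in shOSGEP. Its replicate 2 ratio was 0.25 and the others were -0.39 and -0.12. Kif20a and Kif23, motors of the central spindle, had 156, 216 and 190 CPM against 115, 55.2 and 156.5 CPM, and 81.4, 24.8 and 67.5 CPM against 67.9, 10.7 and 56.1 CPM. Prc1, which bundles midzone microtubules, and Anln, which encodes the contractile ring protein anillin, had log2FCs of -0.38 and -0.25 with ratios of -0.72 and -0.78 in replicate 2. The counts of Kif20a may hold reads of Cdc23, which overlaps it on the opposite strand and shares 32.6% of its 31-base words.

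The genes of mitotic chromosome structure varied widely between controls. Top2a, topoisomerase II alpha (chr11:98992943-99024189), was at 514, 108 and 467 CPM in the controls against 445, 73.2 and 368 CPM with shOSGEP. Mki67, which coats mitotic chromosomes and is the common proliferation marker, was at 623, 73.3 and 503 CPM against 562, 18.7 and 398 CPM. Both were low in both libraries of replicate 2, overlapped, and had log2FCs of -0.30 and -0.29 with SEs of 0.770 and 1.09. In the same-numbered comparisons both were lower in 3 of 3, Top2a by ratios of -0.21, -0.56 and -0.34 and Mki67 by -0.15, -1.97 and -0.34.

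**Figure D3:**
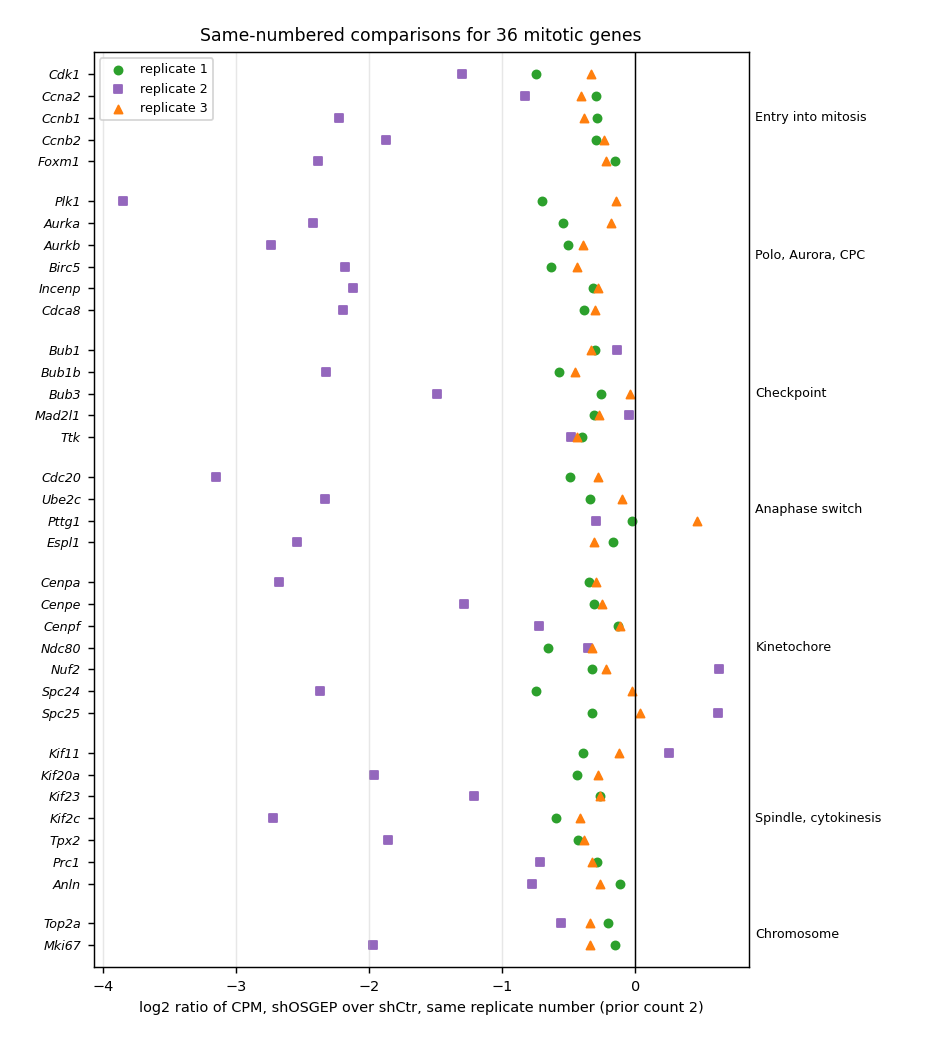
Log2 ratio of CPM (x axis, shOSGEP over shCtr, prior count 2) for each of the 36 mitotic genes between libraries of the same replicate number, 1 point per replicate. Replicates 1 and 3 lie between -0.75 and 0.46, and replicate 2 spreads from -3.85 in Plk1 to 0.63 in Nuf2.

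The members' differences were next set beside the base composition of their transcripts, since shCtr 2 differed from the other controls by GC content. Member transcripts had a median GC of 46.9% (range 40.1 to 56.1%), below the 50.2% of the tested protein-coding genes, and 12 of 36 lay above that median. Their median length was 3131 bases beside 3178. Across the 36 members Spearman's rho of GC with the log2FC was -0.73, and it was -0.33, -0.83 and -0.02 with the ratios of replicates 1, 2 and 3. These are descriptions over genes that share the same 6 libraries. In replicate 2 the 9 members under 44% GC had a median ratio of -0.49, the 15 from 44% to under 50% had -1.31 and the 12 of 50% or more had -2.40. All genes tested in those GC ranges had 1.65, 0.62 and -0.68, so the members lay below the other genes in each range. In replicates 1 and 3 the members' medians were -0.31, -0.30 and -0.50 and -0.25, -0.32 and -0.28 in the 3 ranges, where those of all genes lay between -0.11 and 0.08.

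**Figure D4:**
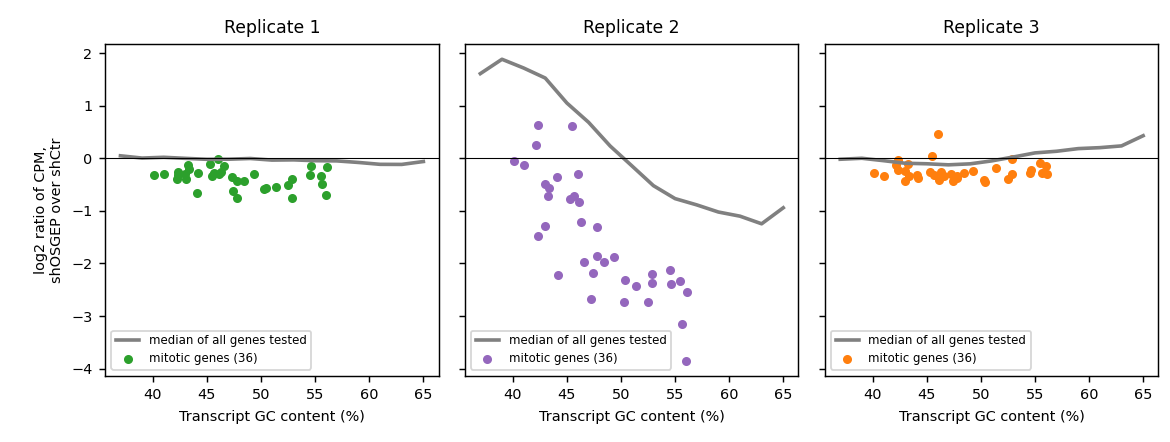
Log2 ratio of CPM (y axis, shOSGEP over shCtr) against transcript GC content (x axis, percent) in replicates 1, 2 and 3, with the 36 mitotic genes as points and the median of all genes tested per GC bin as a grey line. In replicate 2 the points and the line both slope down with GC and most points lie below the line, and in replicates 1 and 3 the line is near 0.

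Each library's trend with GC content and length over all genes was then removed by offsets. The median member ratios became -0.33, -2.003 and -0.25 in replicates 1, 2 and 3 (35, 36 and 33 of 36 lower), beside -0.04, -0.05 and -0.03 over all genes. In replicate 2 the range was -3.51 in Ccnb1 to -0.36 in Spc25, so that Nuf2 (-0.91), Spc25 and Kif11 (-1.35) were also lower there. On this scale 14 members were lower without overlap, against 6.34% of all genes, and 6 of them (Cdk1, Aurkb, Birc5, Bub1b, Spc24 and Kif2c) were also among the 9 counted without the offsets. With the offsets and the replicate block in 1 fit, the median log2FC was -0.85 over the members and -0.04 over all genes, and by GC range it was -0.82, -0.85 and -0.96. No member passed an adjusted p under 0.05 in that fit. Cdk1 (log2FC -0.94) and Ndc80 had an unadjusted p under 0.05, as did 947 of the 12669 genes tested.

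**Figure D5:**
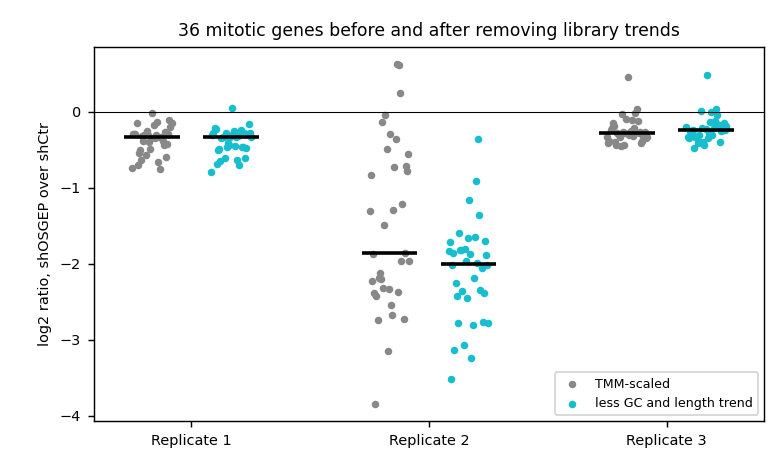
Log2 ratios (y axis, shOSGEP over shCtr) of the 36 mitotic genes in replicates 1, 2 and 3 (x axis), TMM-scaled (grey) and after removal of each library's GC and length trend (blue), 1 point per gene, with a bar at the median. Medians after removal were -0.33, -2.003 and -0.25, and in replicate 2 all 36 genes were then below 0.

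The counts depended on the fit. Limma-voom with sample quality weights alone called 0 members at an adjusted p under 0.05 and 3 genes of the table. It had 5 members past the study's threshold, where 136 of all 12669 genes passed lower and 424 higher. In limma-voom with sample quality weights and the replicate block, 12 members had an adjusted p under 0.05, all lower (Cdk1, Plk1, Aurka, Aurkb, Birc5, Bub1b, Cdc20, Ndc80, Spc24, Kif20a, Kif2c and Tpx2), in a fit that called 11.1% of all genes. Their adjusted p ran from 3.04e-04 in Cdk1 to 0.0337, and the median log2FC over the 36 members was -0.32, so this fit gave smaller differences with smaller errors. Using edgeR with the block and without replicate 2, a fit added after the data were seen and with 1 residual degree of freedom, Cdk1, Aurkb, Birc5, Bub1b, Ndc80 and Kif2c passed (adjusted p 0.0101 to 0.0350), while 4.77% of all genes did.

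Other genes of mitosis were counted from lists by complex. Of 36 further spindle and cytokinesis genes 34 were lower, with a median log2FC of -0.40, which ran from -0.77 without shOSGEP 1 to -0.00016 without shOSGEP 2. Haus7, an augmin subunit that helps nucleate spindle microtubules, was at 23.6, 98.7 and 27.9 CPM in the controls against 17.1, 13.1 and 24.3 CPM with shOSGEP (log2FC -1.46, unadjusted p = 0.0489). The chromokinesin gene Kif22 had a log2FC of -1.39 and the augmin gene Haus4 of -1.09. Of 35 further kinetochore and checkpoint genes 28 were lower (median -0.28, from -0.48 without shOSGEP 1 to -0.14 without shCtr 1), the lowest p belonging to Cenps (-1.14), Pmf1 (-1.17) and Cenpm (-1.05), of which Pmf1 and Cenpm were higher in shOSGEP in replicate 3 (ratios of 0.08 and 0.39) and stood at -0.10 and 0.16 without replicate 2. Of 23 condensin and cohesin genes 19 were lower (median -0.20, but 0.40 without shCtr 1 and 0.28 without shOSGEP 2), with Cdca5, which encodes the cohesin protector sororin, at -1.04. The condensin subunit genes Ncaph and Ncaph2 were at -0.89 and -0.96. Of the APC/C subunits and regulators 11 of 17 were lower (median -0.24, and 0.0058 without shCtr 2), with Fzr1, the late mitotic activator, at -0.89, Anapc5 at -0.61 and Anapc7 at -0.64. Without replicate 2 these were -0.10, -0.22 and -0.07, and Fzr1 and Anapc7 were higher in shOSGEP in replicate 3. In the main edgeR fit no gene of these lists passed an adjusted p under 0.05, and Haus7 was the 1 with an unadjusted p under 0.05. With GC and length offsets the medians of these lists, in the order given, were -0.52, -0.50, -0.40 and -0.24. Those of the members and of all genes were then -0.67 and -0.05.

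The regulators upstream of the members were less uniform. Of 11 CDK1 regulators 8 were lower (median log2FC -0.33, and -0.08 without shCtr 1). Cdc25c, the phosphatase that activates CDK1 at mitotic entry, was at 30.1, 32.7 and 27.2 CPM in the controls against 20.2, 7.36 and 19.6 CPM with shOSGEP, without overlap (log2FC -0.93), and Cdc25b and the inhibitory kinase gene Pkmyt1 were at -1.12 and -0.64, but at -0.23 and -0.0063 without replicate 2. Of 13 MuvB and DREAM subunits 9 were lower with a median of -0.13 (0.28 without shCtr 1 and 0.12 without shOSGEP 2). In replicate 2 their median ratio, with the GC trend not removed, was 0.76, with 4 of 13 lower. With GC and length offsets the median log2FC of this list was -0.35 and that of the CDK1 regulators -0.42, beside -0.67 in the members. E2f4, the repressor E2F of DREAM, was at 27.8, 36.3 and 34.2 CPM against 19.1, 17.4 and 24.1 CPM without overlap (log2FC -0.70), Mybl2, the activating partner of MuvB, had -1.11, and the core subunit gene Lin52 had 1.02 with overlapping groups. Lin52 had ratios of 0.31, 2.76 and -0.18 and a log2FC of 0.10 without replicate 2, where Mybl2 had -0.13. The DNA replication genes, which peak in S phase, came nearest of these lists in median log2FC, at -0.64 with 36 of 41 lower. Rpa2, Rfc5 and Fen1 were at -1.19, -1.27 and -0.93. The list's median ratios were -0.51, -1.65 and -0.25 in replicates 1, 2 and 3, beside -0.33, -1.86 and -0.28 in the members. Without replicate 2 the list's median log2FC was -0.35, beside -0.31 in the members. In limma-voom with quality weights and the block, 23 of the 41 had an adjusted p under 0.05. In that fit 12 of 36 members and 11.1% of all genes did. The difference between that list and the mitotic genes was not tested.

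Since t6A is made on tRNAs that read codons starting with A, the share of such codons was counted in the annotated coding sequences. The members had a median of 29.9% (range 20.9% in Espl1 to 38.2% in Spc25) beside 26.8% over the tested protein-coding genes, and 28 of 36 lay above that value. Across the members Spearman's rho of this share with the log2FC was 0.59, in the direction of smaller differences for genes richer in such codons. It was 0.20, 0.62 and -0.02 with the ratios of replicates 1, 2 and 3, and 0.24 with the offset and block fit. Over all genes tested it was 0.26 with the log2FC and -0.02, 0.40 and -0.22 with those ratios. With the offset and block fit it was 0.02 over all genes. The parts of codon share and GC content in these values were not tested.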

How the data were processed

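PolyA RNA of 6 B16F10 libraries was sequenced as paired reads. The authors deposited estimated counts per gene, whole numbers in 1 table, which were made with STAR 2.6.1d and Salmon 1.4.0 on GRCm38 per the labels, and replicates were not pooled. Kit and counting were not stated to use strand. Groups came from the sample titles.

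Counts were fitted with edgeR 4.0.16 (quasi-likelihood F-test, two-sided, TMM scaling, filterByExpr with a minimum count of 10, no block) over all 6 libraries in R 4.3.3, with Benjamini-Hochberg adjustment over the 12669 genes kept. The fit was also run on simulated counts, which had no GC trend, no pairing and no outlying library. That run does not show how the fit behaves with these features. Alternatives used DESeq2 1.42.0, limma 3.58.1, other scaling and filters, offsets for GC and length (splines of 5 degrees of freedom), the replicate block and libraries left out. The replicate numbers pair the libraries, by the rule that each same-numbered correlation of deviations exceeds 0.1 (0.811, 0.557 and 0.196). Some differently numbered ones did too (up to 0.491), so the correlations are only a hint. Same-numbered libraries also share the ending of their library names, and the labels do not say what it stands for. Ratios of same-numbered libraries used a prior count of 2. Transcript sequence, GC and codons came from the annotation, promoters from RefSeq. Named are Osgep, all members and, per other list, up to 3 genes of smallest p. The members and lists were chosen with earlier results of these data known. Numbers of counts limit precision by counting error only, and depth was 18915587 to 29487384 counts per library. The replicates are separate infections of 1 cell line.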

Additional observations from a re-analysis of the deposited data

How the results depend on the processing

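All 36 members were negative, or 33 to 35 of them, under every alternative that used all 6 libraries or left out both of replicate 2, and the replicate block gave 33 with a median log2FC of -0.80. With 1 library left out the number was 24 to 35 and the median -0.98 to -0.35. Members past the study's threshold numbered 1, and 4 with DESeq2, 5 with limma-voom and quality weights, 3 with no filter, 4 with GC and length offsets, 2 with these offsets and the replicate block, 8 with limma-voom and the block, 0 without both libraries of replicate 2, 4 with the block and without both (added after the data were seen), 0 at an adjusted p under 0.1, and 0 to 5 with 1 library left out (0 without shCtr 2, shOSGEP 1 or shOSGEP 2, 5 without shCtr 1 and 4 without shOSGEP 3). Of the 12669 genes, 54 passed that threshold lower and 202 higher in the main fit. DESeq2 gave 120 and 250, and limma-voom with quality weights 136 and 424. The offsets gave 236 and 453, offsets with block 373 and 493, and limma-voom with block 497 and 945. No filter gave 169 and 430 of 21821. Without both libraries of replicate 2 there were 32 and 162 of 12857, and with the block then 255 and 626. With 1 library left out there were 13 to 187 and 54 to 274. Members at an adjusted p under 0.05 numbered 0, but 12 with limma-voom and the block and 6 with the block without replicate 2. Members without overlap numbered 9, and 14 after the offsets and 7 to 19 with 1 library left out (19 without shCtr 1 or shOSGEP 3). With fewer libraries any gene separates more easily. The share of all genes is not given for those fits, so their counts cannot be set against the 9. In edgeR with neither offsets nor libraries left out, the replicate block changed, among members, the calls of Birc5 and Cdk1 alone. Together with offsets, with limma-voom or without replicate 2 it changed the counts as given. The cause of these changes was not tested.

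Signs changed in 14 members. Pttg1 had a log2FC of 0.33 with limma-voom, 0.10 with upper-quartile scaling, 0.000847 with at least 10 counts in every library, 0.047 with the replicate block, 0.12 with limma-voom and the block, 0.26 without replicate 2 and 0.23 with the block without it. Spc25 had 0.025, 0.020 and 0.11 with limma-voom, upper-quartile scaling and the block, and Nuf2 0.024 with the block. Cenpm, no member, had 0.16 without replicate 2 and 0.057 with the block without it, Ncaph2 0.001913 without replicate 2, and the MuvB list a median of 0.051 with the block. With 1 library left out, log2FC ran from -1.07 to 0.46 in Bub1, -0.57 to 0.079 in Mad2l1, -0.93 to 0.054 in Ttk, -0.57 to 0.79 in Pttg1, -0.96 to 0.32 in Cenpe, -0.74 to 0.46 in Cenpf, -0.93 to 0.10 in Ndc80, -0.65 to 0.51 in Nuf2, -0.45 to 0.56 in Spc25, -0.82 to 0.49 in Kif11, -0.79 to 0.10 in Kif23, -0.68 to 0.19 in Anln, -0.73 to 0.17 in Top2a, -0.94 to 0.26 in Mki67, -1.45 to 0.12 in Cenpm and -1.31 to -0.038 in Ncaph2. List medians ran from -0.93 to 0.054 (checkpoint), -0.93 to 0.32 (kinetochore), -0.83 to 0.22 (chromosome structure), -0.67 to 0.40 (condensin and cohesin), -0.44 to 0.0058 (APC/C), -0.52 to 0.28 (MuvB), -0.77 to -0.00016 (other spindle genes), -0.48 to -0.14 (other kinetochore genes), -0.39 to -0.08 (CDK1 regulators), -0.94 to -0.50 (DNA replication), -0.9996 to -0.37 (entry), -1.37 to -0.69 (Polo and Aurora), -1.27 to -0.54 (anaphase) and -0.82 to -0.06 (motors and midzone).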
